A study of Sus scrofa with 12 samples.

Results

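Genes known from oocytes were examined in whole ovaries of young sows before their first litter (gilts of Sus scrofa). The rule that picks the 48 gene symbols uses no measured value, and 29 of them stand in the deposited table under that symbol, among 29150 loci in all. Where a symbol had several rows, the row with the highest mean count over the 12 libraries was taken, and no filter on low values was applied. Of the 29 genes, 18 had a mean count of at least 50 per library and the remaining 11 lay below that.

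One ovary, the left, came from each of 12 gilts bred from New French Yorkshire sows, and its total RNA was sequenced after removal of ribosomal RNA. Each of 6 litters gave an ES gilt and an NES sister. The 6 ES gilts had come into heat in consecutive cycles and were slaughtered in a later one (the third), and in the 6 NES gilts no heat was seen in checks that began at 165 days of age. The labels name no transgene or treatment and no age at slaughter. The libraries held 58140547 to 68961955 counts, and their levels are given as CPM, counts scaled to the effective library size. A locus without a count had an upper limit of 0.0435 to 0.0516 CPM (3 counts), for counting error only. Levels are given ± SD over the 6 libraries of a group, and log2 differences ± SE. Comparisons between genes use FPKM, which is also divided by length. A whole ovary also holds granulosa, theca, luteal, stromal, vascular and immune cells. A lower value can therefore mean fewer oocytes, less RNA per oocyte or more RNA from other cells, and these cannot be told apart.

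Oocytes enter meiosis before or around birth, pair their chromosomes along the synaptonemal complex, and then rest in primordial follicles under transcription factors such as NOBOX, LHX8 and FIGLA. When a follicle is recruited, the growing oocyte makes the zona pellucida, the secreted factors GDF9 and BMP15 that act on the granulosa cells around it, and a store of maternal RNA and protein for the early embryo. Proteins such as MOS and WEE2 then act in meiotic arrest, and the full-grown oocyte resumes meiosis after the luteinizing hormone surge.

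Defining oocyte markers were present at low levels. GDF9, BMP15, ZP2, ZP3 and ZP4 had counts in 12 of 12 libraries, with mean levels of 0.95 to 2.85 FPKM. DDX4 was counted in 12 of 12 libraries at a mean of 0.35 FPKM and NOBOX in all but ES2 at 0.15 FPKM. FIGLA, by contrast, had 4 counts in ES3, 3 in NES6 and 0 in the other 10 libraries. Its row covers only 44.3% of the RefSeq gene, and what the rest would add was not tested.

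**Figure D1:**
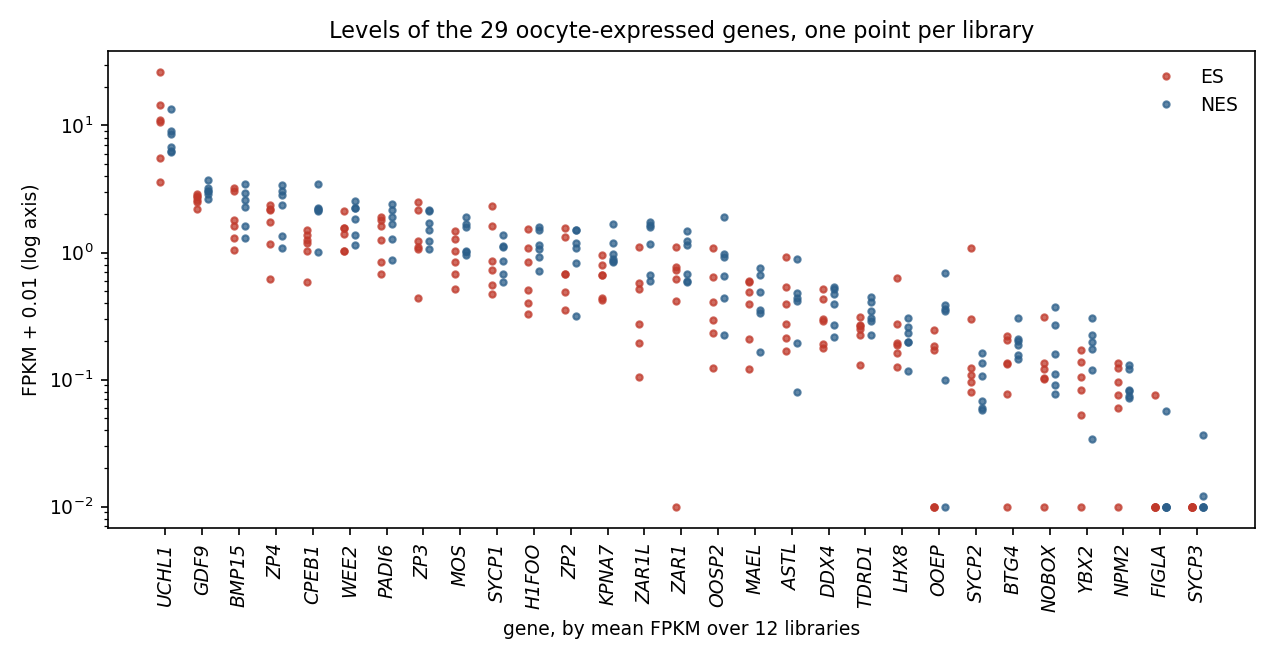
FPKM of the 29 genes in every library, on a log axis with 0.01 added; red points are the 6 ES libraries and blue points the 6 NES libraries, and genes are ordered by mean level. UCHL1 stands highest at a mean of 10.1 FPKM, while FIGLA and SYCP3 lie at or near 0 in most libraries.

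Between ES and NES ovaries none of the 29 genes passed the test. edgeR's quasi-likelihood test over all 29150 loci, with Benjamini-Hochberg adjustment, called 0 of 29, where it called 0.0961% of all loci (0.0858% lower and 0.0103% higher in ES). DESeq2 called 0 of 29 and limma on log2(FPKM + 0.5) 0 of 29, and DESeq2 called 3.68% of the 28131 loci to which it gave an adjusted p. At an unadjusted p under 0.05, edgeR gave 4 of 29 genes (CPEB1, ZAR1L and KPNA7 lower and SYCP2 higher in ES) and 14.9% of all loci. The 3 lower genes stand beside 5.86% of all loci that were lower at that threshold. The share in either direction among these genes is near that of the whole table. The 4 genes became 6 without ES1, 2 without ES3 and 1 without ES3 and ES6. None of the 29 had groups that did not overlap in CPM, against 1.17% of all loci (0.738% lower in ES).

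The sign of the differences was mostly negative. The log2 difference, ES minus NES, was below 0 for 23 of 29 genes and for 43.9% of all loci. Its median was -0.30 over the 29 genes and 0.053 over all loci, and -0.29 over the 28 genes without SYCP3, which had no count in any ES library. Among the 18 genes with a mean count of at least 50 the sign was negative for 16, against 44.1% of the 19163 loci of that depth. These genes share cells and libraries, so their signs are not independent. With ES6 left out, 20 of 29 were negative and the median was -0.18; with ES3 and ES6 both left out, 20 of 29 were negative and the median was -0.15.

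**Figure D2:**
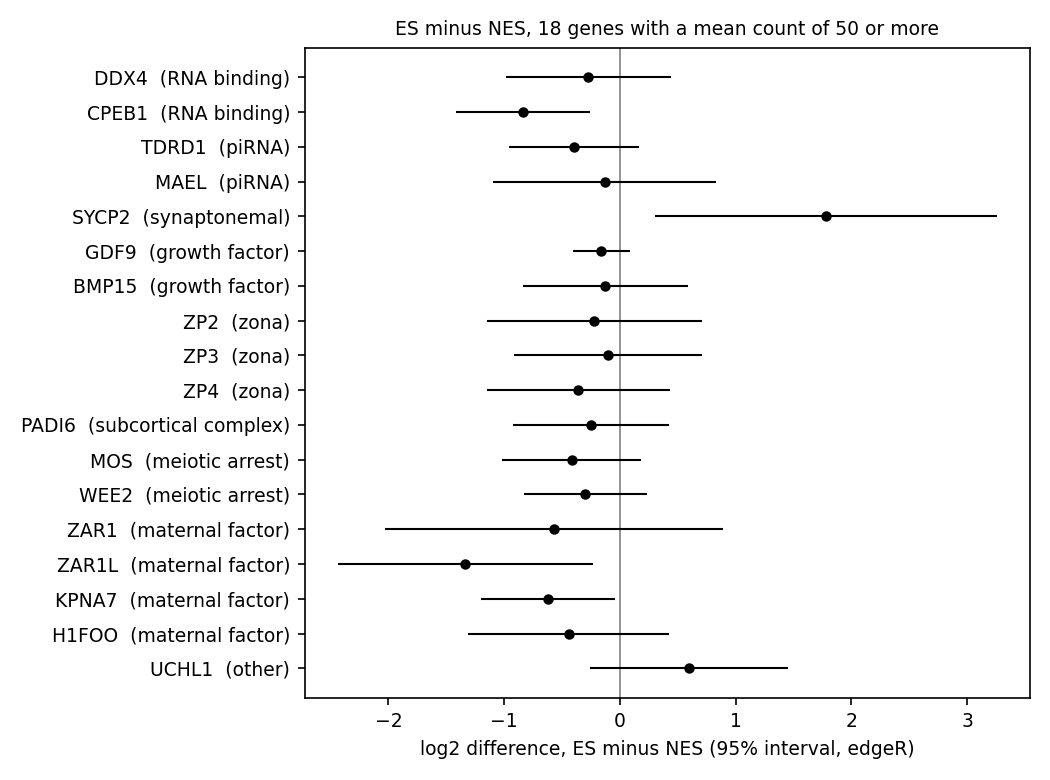
Log2 difference, ES minus NES, of the 18 genes with a mean count of at least 50, as points with 95% intervals from the edgeR fit, ordered by class. For 14 of the 18 the interval includes 0, and the exceptions are CPEB1, ZAR1L, KPNA7 and SYCP2.

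The transcription factors of the primordial follicle had few counts, and FIGLA hardly any. LHX8, a LIM homeodomain factor needed for the survival of early oocytes, had 15 to 86 counts per library, the highest in ES3. NOBOX, the oocyte homeobox factor, had 0 to 49 counts. With FIGLA, the helix-loop-helix factor that switches on zona genes, these were the 3 of 5 listed factors in the table, and 0 of 3 were called.

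The germ cell RNA-binding proteins had lower values in ES for 3 of 3 genes, none called. CPEB1, which binds the tails of stored messages and times their translation in maturing oocytes (MSTRG.21026, chromosome 7, 52303665 to 52383732), had a lowest value of 2.92 CPM, a median of 6.18 and a highest of 7.83 in ES. In NES it had 5.15, 10.7 and 16.3 CPM. The groups overlapped only through NES5, the lowest NES library, and 6 of 6 ES libraries lay below the NES median. Mean levels were 6.02 ± 1.68 (ES) and 10.7 ± 3.56 CPM (NES; SD, n = 6 each), a log2 difference of -0.83 ± 0.27 (SE; unadjusted p = 0.00826, adjusted p = 0.199 with edgeR). Its adjusted p lay between 0.0677 and 0.365 over 24 alternative fits, and the difference between -0.98 and -0.55. Only 66.6% of this locus lies in the RefSeq gene, so reads from outside it count towards the value.

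DDX4, the helicase of germ cell granules also called VASA (MSTRG.9679, chromosome 16, 34880568 to 34983694), marks oocytes of every stage. Its lowest, median and highest values were 0.59, 0.96 and 1.64 CPM in ES and 0.63, 1.32 and 1.72 CPM in NES, so the ranges nearly coincided. The log2 difference was -0.27 ± 0.33 (adjusted p = 0.736 with edgeR), with a 95% interval of -0.99 to 0.44. YBX2, a Y-box protein that stores messages in germ cells, had 0 to 48 counts per library.

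In the piRNA pathway, which silences transposons in germ cells, both genes in the table overlapped between the groups. TDRD1, a Tudor domain protein, had 0.53, 1.11 and 1.35 CPM (lowest, median, highest) in ES and 0.95, 1.34 and 1.80 CPM in NES. Its log2 difference was -0.40 ± 0.26 (adjusted p = 0.480 with edgeR). MAEL had 0.24, 0.95 and 1.19 CPM in ES and 0.32, 0.82 and 1.44 CPM in NES, with a log2 difference of -0.13 ± 0.45 (adjusted p = 0.924 with edgeR). The sign of MAEL turned when any of ES3, ES6, NES2 or NES4 was left out.

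The synaptonemal complex genes differed in level and in sign. SYCP3, a core of the chromosome axis, had 0 counts in ES and 1 and 2 counts in NES3 and NES6. SYCP1, the transverse filament, was read from an assembled locus inside the gene with 9 to 44 counts, and its annotated row had 0 to 8. SYCP2, a partner of SYCP3 on the axis (chromosome 17, 59865955 to 59955209), had 0.53, 0.80 and 8.24 CPM in ES and 0.36, 0.54 and 1.13 CPM in NES.

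ES3 at 8.24 CPM and ES6 at 2.16 CPM were the only libraries in which SYCP2 was above the NES range. Mean levels were 2.22 ± 3.01 (ES) and 0.64 ± 0.32 CPM (NES; SD, n = 6 each), a log2 difference of 1.78 ± 0.68 (adjusted p = 0.265 with edgeR). Without ES3 the difference was 0.65 and without ES3 and ES6 together 0.17. Some markers of other cell types also stood apart in these libraries. The summed levels of granulosa, of theca and luteal, and of stromal and vascular markers were highest in ES1, but single genes differed. Of the granulosa markers only INHA and INHBB were highest of the ES group in ES1. FSHR, IHH and FST were highest in ES5, and CYP19A1, INHBA, FOXL2, AMHR2, NR5A2 and SERPINE2 in ES6. In ES1 INHA stood at 3578 CPM of a granulosa sum of 6992 CPM, and COL1A1 made up most of the stromal and vascular sum. Of the ES group, CYP11A1 and COL1A1 were highest in ES1, STAR in ES6, and DCN was lowest in ES1. The summed level of 7 immune markers was 830.5 CPM in ES3 and 37.1 to 85.2 CPM elsewhere. In ES3 LYZ at 416 CPM and LAPTM5 at 308 CPM made up most of that sum. The lymphocyte genes CD3E, CD2 and MS4A1 were highest of the ES group in ES5 instead. The summed level of 8 motile cilia markers was 582 CPM in ES6 and 24.3 to 53.6 CPM elsewhere. Of these, FOXJ1, RSPH1, TEKT1 and SPAG6 were at 0 in at least 1 library. The sum of 5 surface epithelium markers was 64.4 CPM in ES6 and 1.57 to 16.0 CPM elsewhere, and that of the granulosa markers was lowest in ES3. The part of those cells in the SYCP2 values was not tested.

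The growth factors of the oocyte had the highest levels of the classical oocyte genes. GDF9 (MSTRG.13030, chromosome 2, 135180426 to 135187026), which drives granulosa growth and cumulus expansion, had mean levels of 2.61 ± 0.26 FPKM (ES) and 3.09 ± 0.36 FPKM (NES). Its lowest, median and highest values were 13.9, 16.6 and 19.6 CPM in ES and 16.3, 17.9 and 22.4 CPM in NES. The groups overlapped, and the log2 difference was -0.16 ± 0.12 (adjusted p = 0.528 with edgeR) with a 95% interval of -0.41 to 0.089, the narrowest of the 18 genes.

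BMP15, the X-linked relative of GDF9 with which it forms heterodimers (MSTRG.24664, chromosome X, 44612845 to 44620876), had mean levels of 1.99 ± 0.92 FPKM (ES) and 2.35 ± 0.81 FPKM (NES). It had 3.94, 6.61 and 13.3 CPM in ES and 4.95, 9.21 and 12.3 CPM in NES, the highest of all 12 libraries being ES1 and the lowest ES6. The log2 difference was -0.13 ± 0.33 (adjusted p = 0.896 with edgeR), with a 95% interval of -0.84 to 0.58. Without ES6 it was 0.019.

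GDF9 varied less than its relatives. Its coefficient of variation over the 12 libraries was 12.6%, against 28.4 to 66.6% for 15 other genes of the 18 (SYCP2 and UCHL1 set aside). The median of those 15 was 41.7%, and that of all loci with a mean count of at least 50 was 25.7%. The GDF9 locus is 6601 bases long, of which 44.8% lies in the RefSeq gene, and 573 bases overlap UQCRQ, a respiratory chain gene on the opposite strand with a mean count of 847. UQCRQ varied by 22.1% over the 12 libraries and had a log2 difference of -0.12. Whether reads from outside the gene contribute to the even GDF9 values was not tested.

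The zona pellucida genes, which encode the coat of the growing oocyte, were lower in mean in ES for 3 of 3 genes, none called. ZP4 (MSTRG.7466, chromosome 14, 53577131 to 53584546) had 1.29, 4.13 and 5.71 CPM in ES and 2.30, 5.29 and 6.89 CPM in NES. ZP3 (MSTRG.13535, chromosome 3, 9929418 to 9944941), a major component of the coat in the pig, had 1.03, 2.78 and 6.81 CPM in ES and 2.57, 3.75 and 5.13 CPM in NES. Of the ZP3 locus 65.5% lies in the RefSeq gene. ZP2 had mean levels of 2.46 ± 1.49 CPM (ES) and 2.87 ± 1.18 CPM (NES).

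For each of the 3 zona genes ES6 was the lowest ES library and NES5 the lowest NES library, and ES1 or ES2 the highest ES library. The log2 differences were -0.36 ± 0.36 for ZP4, -0.22 ± 0.43 for ZP2 and -0.10 ± 0.37 for ZP3 (adjusted p = 0.673, 0.852 and 0.930 with edgeR). ZP3 turned to 0.095 without ES6.

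Of the subcortical maternal complex and the NLRP family, proteins of the oocyte cortex needed by the early embryo, 2 of 8 listed genes were in the table under their symbols. PADI6, which builds the cytoplasmic lattices of the oocyte (MSTRG.19211, chromosome 6, 75969863 to 75987784), had 2.55, 5.62 and 7.98 CPM in ES and 3.35, 6.71 and 9.21 CPM in NES. Its order of libraries resembled that of the zona genes, with ES6 and NES5 lowest in their groups. The log2 difference was -0.25 ± 0.31 (adjusted p = 0.749 with edgeR). OOEP had 0 to 24 counts per library, and 80.6% of its locus lies under an opposite-strand locus with a mean count of 102.

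The genes of meiotic arrest had lower means in ES for 3 of 3, none called. WEE2, the oocyte kinase that holds cyclin-dependent kinase inactive during arrest (MSTRG.10867, chromosome 18, 8171138 to 8195957), had 2.54, 3.79 and 5.29 CPM in ES and 2.88, 4.95 and 6.14 CPM in NES. Its log2 difference was -0.30 ± 0.25 (adjusted p = 0.585 with edgeR). MOS, the kinase that keeps the mature egg arrested (MSTRG.15638, chromosome 4, 75739402 to 75741076), had 1.11, 1.98 and 3.06 CPM in ES and 1.97, 2.67 and 3.95 CPM in NES. The highest ES value of MOS was that of ES6, the library lowest of its group for the zona genes, BMP15 and PADI6. The log2 difference of MOS was -0.42 ± 0.28 (adjusted p = 0.485 with edgeR). BTG4, an adaptor for the clearance of maternal messages, had 0 to 55 counts.

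Among the other maternal factors 6 of 6 genes in the table had negative log2 differences, none called. KPNA7, an importin of oocytes and early embryos (MSTRG.13415, chromosome 3, 6167385 to 6201259), had 1.09, 1.76 and 2.56 CPM in ES and 2.08, 2.44 and 4.30 CPM in NES. In 5 of 6 ES libraries it lay below the NES median, and the ranges overlapped. The log2 difference was -0.62 ± 0.27 (unadjusted p = 0.0370, adjusted p = 0.306 with edgeR). Its adjusted p lay between 0.233 and 0.596 over 24 alternative fits.

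ZAR1 and H1FOO, the zygote arrest protein and the oocyte linker histone, averaged 1.03 ± 0.62 and 1.13 ± 0.75 CPM in ES and 1.53 ± 0.60 and 1.53 ± 0.42 CPM in NES. Their log2 differences were -0.57 ± 0.68 and -0.44 ± 0.40 (adjusted p = 0.730 and 0.627 with edgeR). ZAR1 had no count in ES6, and its whole locus lies under FRYL on the opposite strand, with a mean count of 9351. OOSP2, a secreted oocyte protein, had 5 to 68 counts and NPM2, a chaperone of sperm chromatin decondensation, 0 to 11.

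ZAR1L, a relative of ZAR1, had the largest negative difference of the 18 genes, but its value depends on the row. The symbol stands on 3 rows, and the row with the highest mean count (MSTRG.3227, chromosome 11, 8777672 to 8779827) is an assembled stretch of 2156 bases of which 0.0% lies in the RefSeq gene. It had 0.23, 0.99 and 2.55 CPM in ES and 1.39, 3.08 and 3.85 CPM in NES, and 6 of 6 ES libraries lay below the NES median. The log2 difference was -1.34 ± 0.51 (unadjusted p = 0.0210, adjusted p = 0.264 with edgeR).

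The protein-coding ZAR1L row (MSTRG.3225, chromosome 11, 8765256 to 8805881), with a nearly equal mean count of 123, had mean levels of 1.68 ± 0.61 CPM (ES) and 2.23 ± 0.65 CPM (NES). This row spans 40626 bases, of which the RefSeq gene takes only 8795478 to 8805876, and it holds both other ZAR1L rows. Its log2 difference was -0.41 ± 0.28 (adjusted p = 0.501 with edgeR). The short strandless ZAR1L row (MSTRG.3226) had -1.65 ± 0.54 (adjusted p = 0.204), and the 3 rows summed gave -0.99. BRCA2, a DNA repair gene on the opposite strand, begins 961 bases from the protein-coding row. BRCA2 had mean levels of 12.6 ± 2.65 CPM (ES) and 24.5 ± 5.67 CPM (NES) (log2 -0.96 ± 0.19, adjusted p = 0.0529 with edgeR). FRY, another gene on the opposite strand with a mean count of 2446, lies 13 bases from the protein-coding row. Neither BRCA2 nor FRY overlaps a ZAR1L row. The part of reads from either gene in the ZAR1L rows was not tested.

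Of 2 listed genes of the egg surface and fertilization, ASTL was in the table. ASTL, the protease ovastacin that hardens the zona after fertilization, had 7 to 90 counts, the highest in ES1 and the lowest in NES5, and its log2 difference was not called.

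UCHL1, a deubiquitinase abundant in oocytes and in neurons, was the most abundant of the 29 genes (MSTRG.22144, chromosome 8, 32353246 to 32367348). It had 7.25, 23.0 and 52.9 CPM in ES and 12.3, 14.6 and 25.0 CPM in NES, with ES3 highest and ES2 lowest of all 12 libraries. The log2 difference was 0.60 ± 0.39 (adjusted p = 0.483 with edgeR). Without ES3 it was 0.21, and without ES3 and ES6 together 0.00052. Of 10 nerve and glia markers measured, 3 neuronal ones were highest of the ES group in ES3, the library of the UCHL1 peak. STMN2 stood there at 0.69 CPM (at most 0.20 in NES), SNAP25 at 0.49 CPM (at most 0.16 in NES) and ELAVL4 at 0.85 CPM (at most 1.61 in NES). PRPH and the glial gene SOX10 were lowest of the ES group there, at 0 and 9.93 CPM. Other neuronal markers peaked elsewhere in the ES group, DBH in ES6, GAP43 in ES5 and NEFL in ES1. The sum of the 10, from 12.6 CPM in ES3 to 36.5 CPM in NES6, is carried mostly by SOX10, and 7 of the 10 had no count in at least 1 library. The part of nerve cells in the UCHL1 values was not tested.

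**Figure D3:**
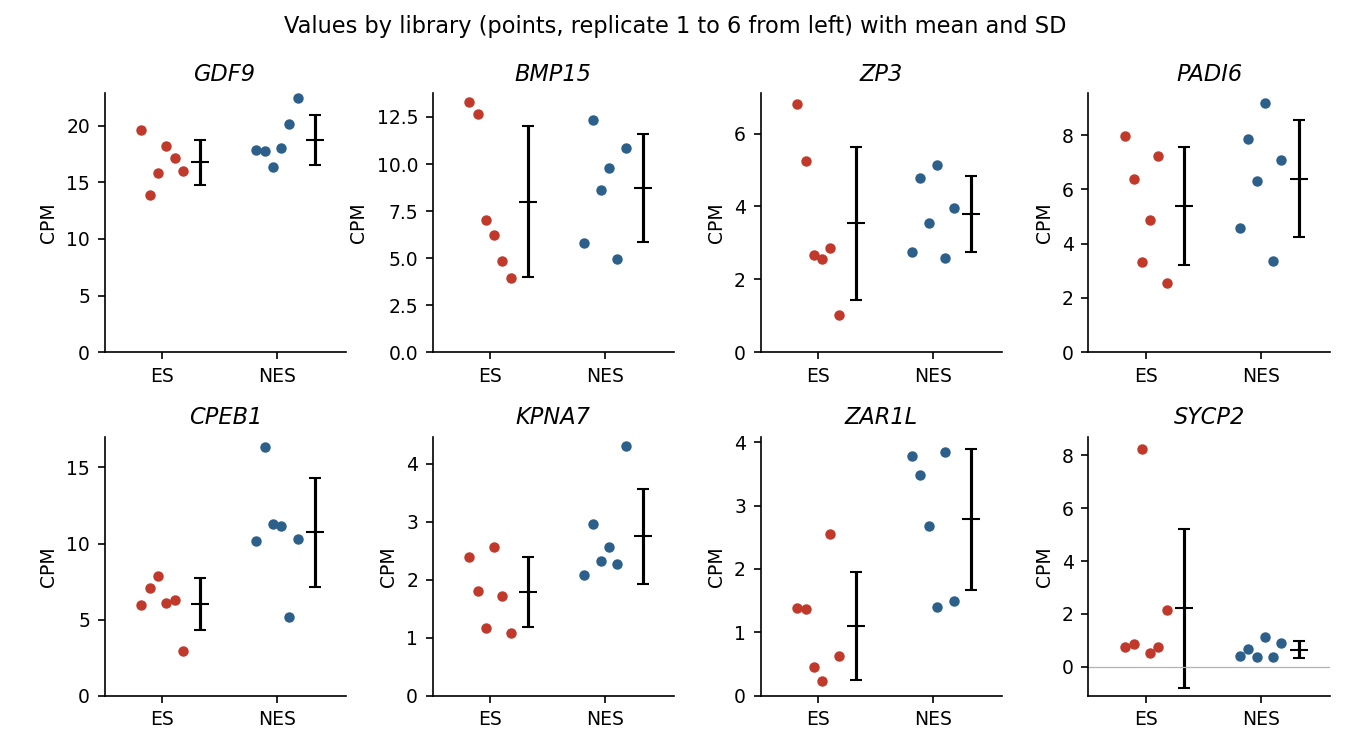
CPM of 8 genes in each library, with replicates 1 to 6 from left to right and the mean and SD at the right of each group (n = 6 each); the SD bar of SYCP2 runs below 0. BMP15, ZP3 and PADI6 share their lowest libraries, GDF9 spreads little, CPEB1 overlaps only through NES5, and the SYCP2 mean in ES rests on ES3.

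For a grouping by stage, whole classes were assigned. The transcription factor, RNA-binding, piRNA and synaptonemal classes were set as primordial follicle on, or earlier. Their 11 genes were lower in ES for 7, with a median log2 difference of -0.27. They include CPEB1 (-0.83), which is described above for maturing oocytes. The 17 genes of the growing and full-grown oocyte were lower for 16, with a median of -0.36. The range was wider in the earlier class, from -2.32 to 1.78 against -1.55 to 0.13, and both its ends are synaptonemal genes, SYCP3 being at 3 counts in all. The difference between the stage classes was not tested.

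The libraries differed in the oocyte genes within each group. ES6 was the lowest ES library for 12 of the 18 genes and NES5 the lowest NES library for 11. NES2, NES4 or NES6 was the highest NES library for 15 of 18. Relative to each gene's mean over the 12 libraries, the median log2 level over the 18 genes was -1.14 in ES6 and 0.13 in ES1, the ends of the ES group. In NES it ran from -0.52 in NES5 to 0.44 in NES2, so the groups overlapped. The coefficient of variation was larger in ES than in NES for 16 of the 18 genes, with medians of 46.3% and 33.1%. The summed level of 11 granulosa markers also spread more in ES, from 474 CPM in ES3 to 6992 CPM in ES1, than in NES, from 1574 to 4707 CPM. Single markers differed, with log2 differences below 0 for 5 and above 0 for 6. INHA alone ran from 10.7 to 3578 CPM in ES, while IHH, FST, INHBB and FSHR had a larger SD in NES. The summed level of 5 theca and luteal markers ran from 237 to 3026 CPM in ES and from 246 to 405 CPM in NES. How much of the spread in oocyte genes goes with the other tissue in each ovary was not tested.

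**Figure D4:**
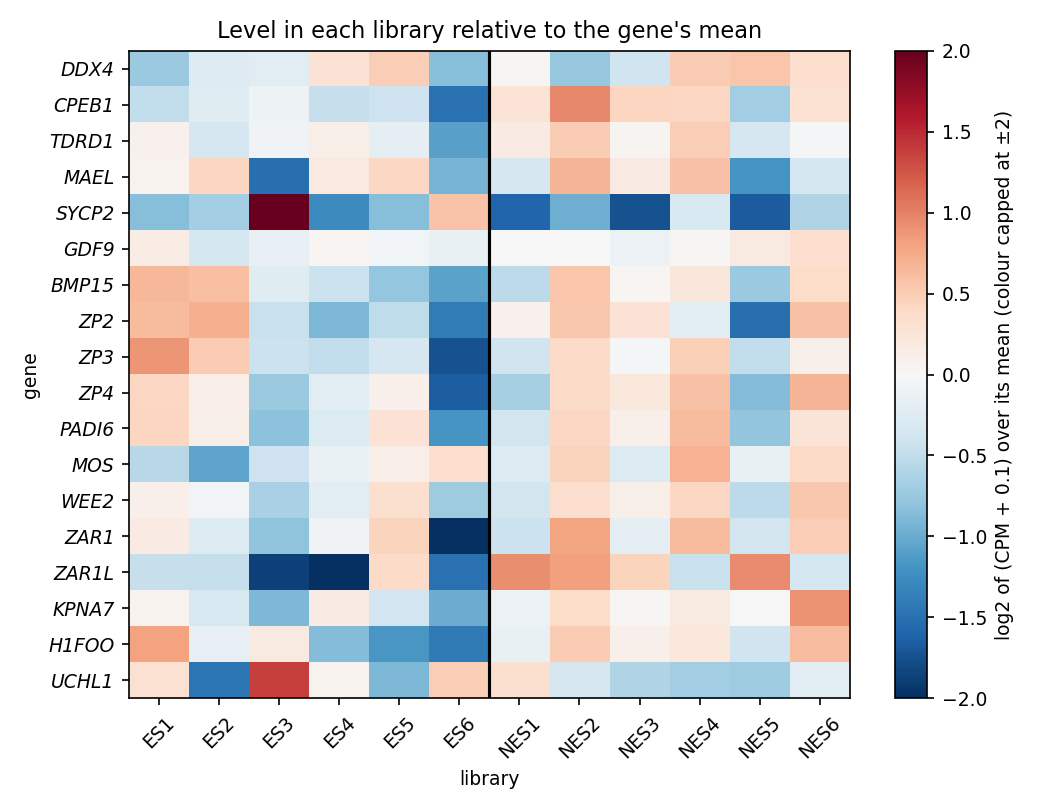
Level of the 18 genes in each of the 12 libraries, as log2 of CPM + 0.1 over the gene's mean; red is above and blue below the mean, the line separates ES from NES, and the colour is capped at 2 in either direction. The zona genes, BMP15, PADI6 and ZAR1 are blue in ES6 and mostly red in NES2, while SYCP2 and UCHL1 are red in ES3.

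For 7 of the 19 symbols without a row of that name a locus was found by another route, through an Ensembl identifier, the current symbol or a RefSeq gene of the same build that overlaps it by at least 0.5 in both directions. SOHLH2, a transcription factor of early oocytes, had mean levels of 1.71 ± 0.82 CPM (ES) and 1.78 ± 0.89 CPM (NES) (log2 -0.056 ± 0.40, adjusted p = 0.969 with edgeR). NLRP7 averaged 1.34 ± 0.84 and 1.46 ± 0.57 CPM (log2 -0.12 ± 0.43, adjusted p = 0.930), again with ES6 and NES5 lowest in their groups. NLRP2 had 30 to 60 counts per library. DAZL, an RNA-binding protein of germ cells, had 0 to 16 counts, JUNO, the egg receptor for sperm (now IZUMO1R), 0 to 20, ACTL8 0 to 12 and TCL1A 0 to 6. MSY2 is an older name of YBX2. TEX14 lies in a locus joined with other genes and was not used here. SOHLH1, PATL2, TDRD9, NLRP5, NLRP14, KHDC3L, TLE6, DPPA3, TUBB8 and BCL2L10 were not analysed here.

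Other genes of the oocyte and of meiosis gave 0 calls with edgeR. Of 34 further oocyte genes 25 were measured, 14 with a negative sign, and their median log2 difference was -0.075. Among the 15 with a mean count of at least 50, the 4 with the smallest p-values were all lower in mean in ES. NANOS3 (unadjusted p = 0.0223 with edgeR) had 0 to 7 counts per library and was not ranked. The first 2 of the 4 were cell cycle regulators that also act outside oocytes. CCNB3, a cyclin of meiosis, had mean levels of 2.67 ± 1.49 CPM (ES) and 8.77 ± 4.26 CPM (NES) (log2 -1.72 ± 0.40, adjusted p = 0.0834), and FBXO43, an inhibitor of the anaphase-promoting complex, had -0.96 ± 0.32 (adjusted p = 0.211). TDRD6, a Tudor protein of germ granules, and NLRP11 had log2 differences of -0.70 ± 0.31 and -0.68 ± 0.37 (adjusted p = 0.311 and 0.407). DESeq2, which called 3.68% of the loci to which it gave an adjusted p, called CCNB3 (adjusted p = 0.00164, range 0.00164 to 0.210 over 24 alternative fits). Without ES1 and without NES6, where edgeR called 0.772% and 1.25% of all loci, the adjusted p of CCNB3 was 0.0282 and 0.0209.

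Of 21 further meiosis genes 16 were measured, 6 with a negative sign, with a median of 0.13. TRIP13, an ATPase of the meiotic and mitotic checkpoints, had mean levels of 53.8 ± 7.92 CPM (ES) and 80.8 ± 14.1 CPM (NES) (log2 -0.59 ± 0.14, adjusted p = 0.0899). DESeq2, with 3.68% of loci called, called TRIP13 (adjusted p = 0.00907, range 0.00907 to 0.229 over 24 alternative fits). Without NES6, where edgeR called 1.25% of all loci, edgeR called TRIP13 too (adjusted p = 0.0291). Of the 4 genes with a mean count of at least 50, the 3 other than TRIP13 were higher in mean in ES. Some genes with fewer counts had smaller p-values than these 3 in either direction, and none was called. Among them were REC8 (log2 1.32) and SMC1B (log2 -1.11). TEX15, a germ cell protein of meiosis and transposon silencing, had a log2 difference of 1.01 ± 0.57 (adjusted p = 0.420), which was 0.34 without ES4. STAG3, a meiotic cohesin, had 0.22 ± 0.25 and SYCE1, of the synaptonemal central element, 0.09 ± 0.11 (adjusted p = 0.714 and 0.743).

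Of 30 genes through which oocyte and somatic cells signal to each other (receptors and effectors of GDF9 and BMP15, the KIT pair, the cyclic nucleotide pathway and cumulus genes), 26 were measured and 7 had a negative sign, with a median of 0.23 and 0 calls. SMAD2, which carries the GDF9 signal in granulosa cells, had mean levels of 453 ± 102 CPM (ES) and 783 ± 200.1 CPM (NES) (log2 -0.79 ± 0.19, adjusted p = 0.0897). SMAD4, the shared partner of the SMAD proteins, averaged 295 ± 23.7 and 374 ± 33.8 CPM (log2 -0.34 ± 0.09, adjusted p = 0.130). Its ES libraries all lay below the NES libraries, as was so for 0.738% of all loci. DESeq2 called SMAD2 and SMAD4, and 3.68% of all loci to which it gave an adjusted p. The DESeq2 adjusted p was 0.00763 (range 0.00763 to 0.214 over 24 alternative fits) for SMAD2 and 0.0129 (range 0.0129 to 0.310) for SMAD4. Without NES6 edgeR called SMAD2 (adjusted p = 0.0465) and 1.25% of all loci.

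The next 2 of that list by p were higher in mean in ES, with 1 ES library far above the others for each. BMPR1B, a receptor subunit for BMP15, had 136, 194 and 4544 CPM in ES and 96.0, 134 and 192 CPM in NES (lowest, median, highest). In 6 of 6 ES libraries BMPR1B lay above the NES median, and the groups overlapped. Its log2 difference was 2.78 ± 0.88 (adjusted p = 0.195 with edgeR), and 0.75 (adjusted p = 0.300) without ES1, the highest library. PTGS2, the prostaglandin synthase induced in cumulus cells around ovulation, had 1.33, 2.42 and 209 CPM in ES and 1.08, 1.59 and 1.98 CPM in NES. Its log2 difference was 4.52 ± 1.36 (adjusted p = 0.173 with edgeR), and 0.42 (adjusted p = 0.460) without ES4, the highest library. DESeq2 gave neither gene an adjusted p.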

How the data were processed

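Raw counts and FPKM per locus were deposited by the authors in a single table, per the file headers. Trizol RNA went into dUTP strand-specific libraries after ribosomal depletion, per the labels' protocols. Sscrofa11.1, HISAT2, TopHat, cutadapt and FastQC appear in the submitters' processing notes. What counted the reads, with which annotation and whether by strand, is not given in the sources used here, so reads of overlapping and opposite-strand loci may be shared. FPKM was normalised by the authors, per the file headers.

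Unnamed rows, 4.47 to 6.60% of a library's counts, are assembled loci and stayed in the fit. Group and replicate came from the sample titles. Each group is 6 separate animals. The labels do not say whether a replicate number marks a litter, so the fit has no litter term. All 29150 loci were fitted with edgeR 4.0.16 (quasi-likelihood, TMM factors, no covariate; R 4.3.3) and p-values adjusted over all of them by Benjamini-Hochberg, called under 0.05. The SE is the log2 difference divided by the square root of F, and 95% intervals use the fit's t quantile. DESeq2 1.42.0 and limma 3.58.1 were alternatives. The fits were tested on simulated counts, where DESeq2 called more unchanged loci than edgeR did and edgeR missed most of the smaller changes. Tables used Python 3.11.15 and pandas 2.3.3. RefSeq gene extents were those of Sscrofa11.1.

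The genes and lists were chosen with earlier results of these data known. Genes with a mean count of at least 50 received a difference and test, and the others counts only; library ranges were given for the 2 most abundant of each class and the 5 smallest p-values. Further lists name at most 4 genes by smallest p, among genes with a mean count of at least 50. The markers of other ovarian cell types are given as summed CPM where they bear on a value.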

Additional observations from a re-analysis of the deposited data

Results flagged for a closer look

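SYCP2 in ES3 was set apart because its gap to the next library took most of the range of the ES group. It stood at 8.24 CPM, the next ES library (ES6) at 2.16 CPM, and the gap was 0.789 of the range, over Dixon's critical value for 6 samples. In all, 40 groups of 6 were examined and 1 was set apart, where chance sets apart about 1 in 20. The level of immune markers in ES3 is given with the SYCP2 values above, and its part was not tested.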

How the results depend on the processing

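In 24 alternatives the count of oocyte-expressed genes called stayed at 0. Their median log2 difference stayed negative, between -0.41 and -0.15. The count with a negative sign was 14 of the 16 genes left by a minimum mean FPKM of 0.5, 20 of the 25 left by edgeR's own expression filter, and 20 to 24 of 29 elsewhere. The 28 calls over all loci had adjusted p-values from 0.0474 to 0.0475 and were unstable. They numbered 1035 with DESeq2, 193 with the mean FPKM minimum, 170 with edgeR's own expression filter, 53 in the robust fit, 0 with median-of-ratios factors and 1 without ES3 and ES6. With limma at pseudocounts of 0.1, 0.5 and 1 they numbered 112, 47 and 1. Leaving out 1 library gave 0 to 363, namely 225 without ES1, 363 without NES6, 4 without ES3, 1 without NES2 and 0 without any other; the cause was not tested.

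With the replicate block, edgeR called 2 loci and 0 of the 29 genes, and 2 genes in place of 4 had an unadjusted p under 0.05. In that edgeR fit SYCP2 had a log2 difference of 1.03 (unadjusted p = 0.149) and KPNA7 -0.64 (unadjusted p = 0.0695). Deviations of same-numbered libraries correlated by -0.028 to 0.243 and 3 of 6 ES libraries correlated best with their own number, and the labels do not say that a number marks a litter, so the numbers were not used as pairs.

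Signs turned for genes with small log2 differences. Leaving out 1 library gave -0.31 to 0.067 for MAEL, -0.33 to 0.019 for BMP15, -0.40 to 0.095 for ZP3, -0.47 to 0.084 for NLRP7 and -0.25 to 0.14 for SOHLH2. The sign turned without ES3, ES6, NES2 or NES4 for MAEL, without ES6 or NES2 for BMP15, without ES6 or NES4 for ZP3, without ES6, NES4 or NES6 for NLRP7, and without ES1, ES3, NES2 or NES5 for SOHLH2. Without ES3 and ES6 together the differences were 0.26 for MAEL, 0.091 for BMP15, 0.051 for ZP2, 0.21 for ZP3, 0.056 for PADI6 and 0.17 for NLRP7. Genes under a mean count of 50 are limited by depth.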
